A study of Mus musculus with 17 samples.

Results

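The 10 genes described here encode LKB1, the product of Stk11, and 9 of the AMPK-related kinases that LKB1 activates: Brsk1, Brsk2, Mark1, Mark2, Mark3, Mark4, Nuak1, Sik2 and Sik3. They are the rows with these symbols among the 55453 distinct gene symbols of a table of mouse cortex RNA-seq. Levels are in TPM, a share of all transcripts in a sample that accounts for the length of each, so levels can be compared between genes. The family was taken up because Brsk1 had been chosen by its difference between P209L mice and their controls in an earlier look at the same data. The values of the 10 kinases in the P209L comparison are therefore given below as a description, with no p, and nothing is read from counts past a threshold there. The other 9 genes were added for their known place in the same pathway.

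LKB1 works in a complex with a STRAD pseudokinase and the scaffold MO25, and switches its target kinases on by phosphorylating a threonine in their activation loop. In cortical neurons, LKB1 and the BRSK (also called SAD) kinases are needed to set apart 1 axon from the dendrites, and NUAK1 supports the branching of axons. The MARK kinases, mouse relatives of the worm polarity protein PAR-1, phosphorylate tau and other microtubule-associated proteins and loosen them from microtubules. The SIK kinases phosphorylate CRTC coactivators and class IIa histone deacetylases and so keep them out of the nucleus.

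The cortex came from 17 male C57BL/6J mice of 3 lines, each line with mutants hemizygous for an allele of the X-linked gene Hnrnph2 and with wild-type littermates as its controls. hnRNPH2 is an RNA-binding protein, and both knockin alleles change a residue in its nuclear localization signal. The groups were KO (n = 3) and KO controls (n = 3) at 8 weeks, R206W (n = 3) and R206W controls (n = 3) at 8 weeks, and P209L (n = 3) and P209L controls (n = 2) at 3 weeks. The KO allele is an indel that shifts the reading frame and leads to decay of the mRNA. The mutation is constitutive, so no cell type is singled out, and each sample is bulk tissue. The labels count the mice as separate samples, and P209L differs from the other lines in age as well as in allele.

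Hnrnph2 itself was at 21.3 to 24.4 TPM in KO cortex and at 80.5 to 145 TPM in KO controls, while R206W (135 to 160 TPM) and P209L (84.5 to 103 TPM) overlapped their controls. The 7 neuronal markers fixed for the check of the tissue, Rbfox3, Snap25 and Slc17a7 among them, each averaged at least 1 TPM in every group. All markers used for oligodendrocytes, astrocytes, microglia and endothelial cells did so too, so this level does not tell tissues apart. KO control 1 stood apart from the other 8-week samples: mitochondrial genes took 20.1% of its TPM against 10.7% to 15.4% in the others, and its neuronal markers summed to 3008 TPM against 4214 to 5354. P209L control 2 had 1767 TPM of choroid plexus markers, mostly Ttr, against 2.54 to 26.0 in every other sample. Both P209L controls had more skeletal muscle marker RNA (112 and 118 TPM) than all other samples (46.7 to 63.8 TPM). Differences of several members are also given without KO control 1 or without a P209L control. Marker and pathway values are given with all samples only.

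All 9 target kinases share the activation loop that LKB1 phosphorylates, and its coding bases are shown because they define the family and show how far related members can be told apart in sequence. Each line gives 30 coding bases on the sense strand from the GENCODE M21 transcript with the longest complete coding sequence, with the codon of the phosphorylated threonine in capitals.
Brsk1: ctcctggagACCagctgcgggtccccccat
Brsk2: ctgctggagACCagctgcggatctccacac
Mark1: aaattggacACAttctgtggaagcccgcct
Mark2: aagctggatACTttctgtggcagtcctcct
Mark3: aaactagacACGttttgtggtagtcctcca
Mark4: aagctggacACCttctgtgggagcccccca
Nuak1: ttcttgcaaACAttttgtgggagcccactc
Sik2: ctgctggcaACAtggtgtggcagcccccct
Sik3: ctgctgaagACGtggtgtggcagccctccc

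On GRCm38, the Brsk1 stretch spans the junction of exons 5 and 6 at chr7:4698797-4698928 on the plus strand, and the Brsk2 stretch spans the same pair of exons at chr7:141984946-141985443. The other stretches each lie in 1 exon, exon 8 in the 4 Mark genes and exon 5 in Nuak1, Sik2 and Sik3. Brsk1 and Brsk2 shared 25 of the 30 bases and encoded the same 10 residues, and the Mark genes shared 22 to 24 bases with one another and also encoded the same 10 residues. Between Brsk1 and the genes outside its own pair, 13 to 19 bases were shared. Over whole transcripts, Brsk1 and Brsk2 had no stretch of 50 bases in common with each other or with any other member, and only Mark1 and Mark3 did, with 16 such stretches (0.37% of those of Mark1). The 3 pseudogenes named after members were at 0 TPM in all samples. Of the genes that overlap a member in position, Cbarp overlaps Stk11 on the opposite strand at 123 to 277 TPM, and Ppp2r1b overlaps Sik2 on the opposite strand at 6.46 to 15.03 TPM. Whether the reads were counted by strand is not given in the sources used here, so the values of Stk11 and Sik2 may include reads of their partners.

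Brsk1 had the highest level of the 10 kinases in every group and Brsk2 the second highest. In the KO controls Brsk1 was at 230 ± 5.16 TPM (SD, n = 3), in the R206W controls at 224 ± 14.0 TPM (SD, n = 3) and in the P209L controls at 148 ± 12.4 TPM (SD, n = 2). Brsk2 was at 116 ± 32.6, 119 ± 2.26 and 84.5 ± 2.79 TPM in the same groups, and within each of the 6 groups its range overlapped neither that of Brsk1 above it nor that of any gene below it. Sik2 was the lowest member in every group, at 27.3 ± 9.42 TPM in the KO controls, 34.0 ± 1.97 TPM in the R206W controls and 8.07 ± 1.61 TPM in the P209L controls.

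Between these ends the order was less clear. In the KO controls it ran Mark2, Stk11, Mark3, Mark1, Sik3, Nuak1, Mark4 and Sik2, with means from 59.6 TPM down to 27.3 TPM, and every neighbour overlapped the next. In the R206W controls Mark2 (61.4 to 66.9 TPM) lay above Mark3 (52.3 to 58.5 TPM) without overlap, whereas Mark3, Stk11, Sik3, Mark1 and Nuak1 each overlapped the next, and Mark4 (36.7 to 40.2 TPM) lay below Nuak1 (44.0 to 49.9 TPM). In the P209L controls, which are younger, Mark3 (57.8 to 60.5 TPM) and Stk11 (53.8 to 58.2 TPM) overlapped and stood above Mark2 (43.6 to 49.5 TPM), and Nuak1 (17.4 and 17.8 TPM) was the second lowest. KO had the order of its controls and P209L that of its controls, and R206W differed from its controls only in the places of Mark3 and Stk11.

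**Figure D1:**
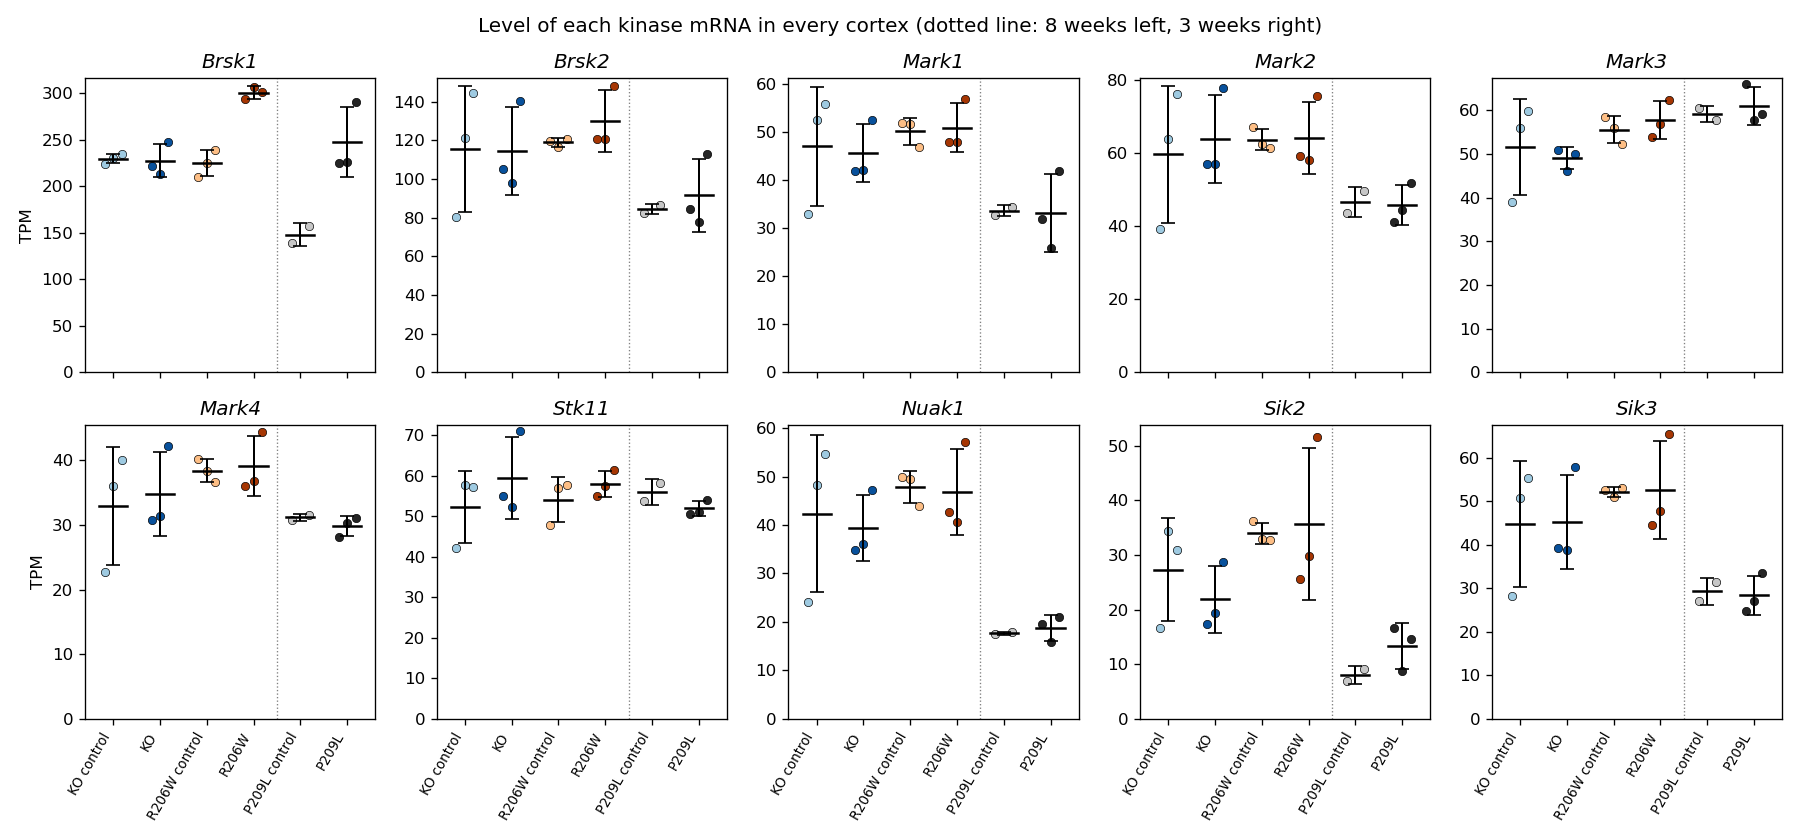
TPM of each of the 10 kinases (vertical axes, from 0, each gene on its own scale) in the 6 groups; points are single mice, horizontal bars the group mean and error bars 1 SD. Brsk1 is the only gene whose 3 R206W mice (293 to 307 TPM) lie above all 3 of their controls (210 to 238 TPM), and Nuak1 and Sik2 are low in all mice of 3 weeks.

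Brsk1 lay above its controls in every R206W and every P209L mouse, and it overlapped its controls in KO cortex. It was at 222, 213 and 247 TPM in KO mice and at 224, 230 and 235 TPM in their controls. The KO values lay on both sides of the control values. In R206W mice it was at 293, 307 and 301 TPM, and in R206W controls at 210, 225 and 238 TPM. Every R206W mouse was above every R206W control, and also above every KO control and every KO mouse. With median-of-ratios size factors, which set the typical gene equal between samples, the R206W mice (267 to 291) stayed above their own controls (192 to 225), but KO control 1, at 283, was then among the R206W mice. In P209L mice it was at 225, 226 and 290 TPM, and in P209L controls at 139 and 157 TPM, again without overlap.

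On the log2(TPM + 1) scale the difference of Brsk1 in KO was -0.02 ± 0.11 (SE), with a 95% interval of -0.24 to 0.21. Without KO control 1 this difference was -0.03. With limma fitted over 16265 genes, neither Brsk1 nor any other member passed an adjusted or an unadjusted p of 0.05 in KO, where 0.00615% of all genes passed the adjusted and 4.08% the unadjusted threshold. In KO, 0 of the 10 members were without overlap between mutants and controls, against 6.25% of all genes. The difference of Brsk1 in R206W was 0.42 ± 0.11 (SE), with an interval of 0.19 to 0.65, or 134% of the control level. Its unadjusted p was 0.00127, rank 21 of the 16265 genes, but the adjusted p was 0.972 and so the gene was not called. Of the 10 members, 0 passed the adjusted threshold in R206W (0.0369% of all genes did) and 1, Brsk1, the unadjusted threshold (2.19% of all genes). Brsk1 was also the 1 member of 10 whose R206W and control values did not overlap, against 16.2% of all genes without overlap in either direction and 8.09% with the R206W mice higher. Over 17 alternative settings the R206W difference of Brsk1 lay between 0.37 and 0.46 and its unadjusted p between 3.49e-06 and 0.00835. The adjusted threshold was passed under 1 setting, sample weights, with 0.41 and an adjusted p of 0.00333. Under that setting 149 of the 16265 tested genes were called in R206W, against 6 as analysed.

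In P209L the difference of Brsk1 was 0.73 ± 0.12 (SE), with an interval of 0.48 to 0.98, or 166% of the control level. This is the value by which the gene was chosen. Its place past the thresholds and the lack of overlap follow from that choice and are no test of it. For reference, 1 of 10 members, Brsk1, was past each, as were 0.0984% of all genes for the adjusted and 7.46% for the unadjusted threshold and 24.9% for lack of overlap. Leaving out P209L control 2, the sample with choroid plexus RNA, gave 0.81, and leaving out P209L control 1 gave 0.65. Over 16 alternatives the value lay between 0.61 (without P209L 3) and 0.81.

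The effects in the same-aged KO and R206W lines were also compared with each other. The KO effect on Brsk1 was lower than the R206W effect by 0.44 on the log2 scale (effect difference -0.44 ± 0.15 SE, interval -0.76 to -0.11). The unadjusted p was 0.0111 and the adjusted p was 1, so the difference between the lines was not called. It was the 1 of 10 members at an unadjusted p under 0.05, as were 2.29% of all genes, and 0 of 10 were called, as were 0.0307% of all genes. Without KO control 1 the effect difference was -0.45 with an unadjusted p of 0.00775.

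Brsk2, the closest relative of Brsk1, overlapped its controls in all 3 lines. In R206W mice it was at 120, 121 and 148 TPM against 120, 116 and 121 TPM in controls, and in P209L mice at 84.2, 77.5 and 113 TPM against 82.6 and 86.5 TPM. The fitted differences of Brsk2 were 0.01 (interval -0.40 to 0.42) in KO, 0.12 (interval -0.29 to 0.53) in R206W and 0.10 (interval -0.36 to 0.56) in P209L. Without KO control 1 the KO difference of Brsk2 was -0.23 (adjusted p = 0.637). The intervals of Brsk2 in R206W and P209L include changes as large as the 0.42 seen for Brsk1 in R206W, so these data cannot tell whether Brsk2 changed by that much.

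None of the 4 Mark genes was called or lay apart from its controls in any line. Their differences ran from -0.05 (Mark3) to 0.13 (Mark2) in KO, from 0.00 (Mark2) to 0.05 (Mark3) in R206W and from -0.06 (Mark4) to 0.04 (Mark3) in P209L. In R206W the intervals were -0.38 to 0.42 for Mark1, -0.41 to 0.42 for Mark2, -0.23 to 0.33 for Mark3 and -0.35 to 0.38 for Mark4. In KO cortex the values of the Mark genes depended on KO control 1, which had the lowest level of all 4 among the 8-week samples. Without it the KO differences became -0.25 for Mark1, -0.14 for Mark2, -0.24 for Mark3 and -0.14 for Mark4. None was called, and Mark3 had an unadjusted p of 0.0186 and an adjusted p of 0.416.

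Stk11, the upstream kinase, was at 55.1, 52.4 and 71.1 TPM in KO mice and at 42.1, 57.7 and 57.4 TPM in their controls. KO control 1 gave the lowest and KO 3 the highest of these values, and the groups overlapped. The differences of Stk11 were 0.18 (interval -0.11 to 0.47) in KO, 0.10 (interval -0.19 to 0.39) in R206W and -0.11 (interval -0.43 to 0.22) in P209L. Without KO control 1 the KO difference of Stk11 was 0.04 (adjusted p = 0.938). Nuak1 differed by -0.03, -0.04 and 0.08 in the 3 lines in the same order, and Sik3 by 0.05, -0.01 and -0.05, with intervals that reached beyond 0.40 on either side of 0 in each line. Without KO control 1 the KO difference of Nuak1 was -0.39 (unadjusted p = 0.028, adjusted p = 0.435) and that of Sik3 -0.25 (adjusted p = 0.647).

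Sik2 had the largest spread of the 10 relative to its mean in KO, R206W, P209L controls and P209L, up to a coefficient of variation of 39.2% in R206W. It was at 25.6, 29.8 and 51.5 TPM in R206W mice and at 36.2, 32.9 and 32.8 TPM in R206W controls. R206W 3 was above every control and the other two were below. In KO mice it was at 17.4, 19.3 and 28.8 TPM, and in KO controls at 16.6, 34.4 and 30.9 TPM. The KO difference of Sik2 was -0.28 (interval -0.90 to 0.35), and -0.59 without KO control 1, where it was not called either (adjusted p = 0.487). With sample weights, which gave KO control 1 a weight of 0.0819, the KO differences of Sik2 (-0.83, adjusted p = 0.0149) and Nuak1 (-0.43, adjusted p = 0.0243) were called. In P209L mice Sik2 was at 16.6, 8.70 and 14.7 TPM against 6.94 and 9.21 TPM in controls, a difference of 0.63 with an interval of -0.08 to 1.33. One P209L mouse lay within the control range and the others above it.

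**Figure D2:**
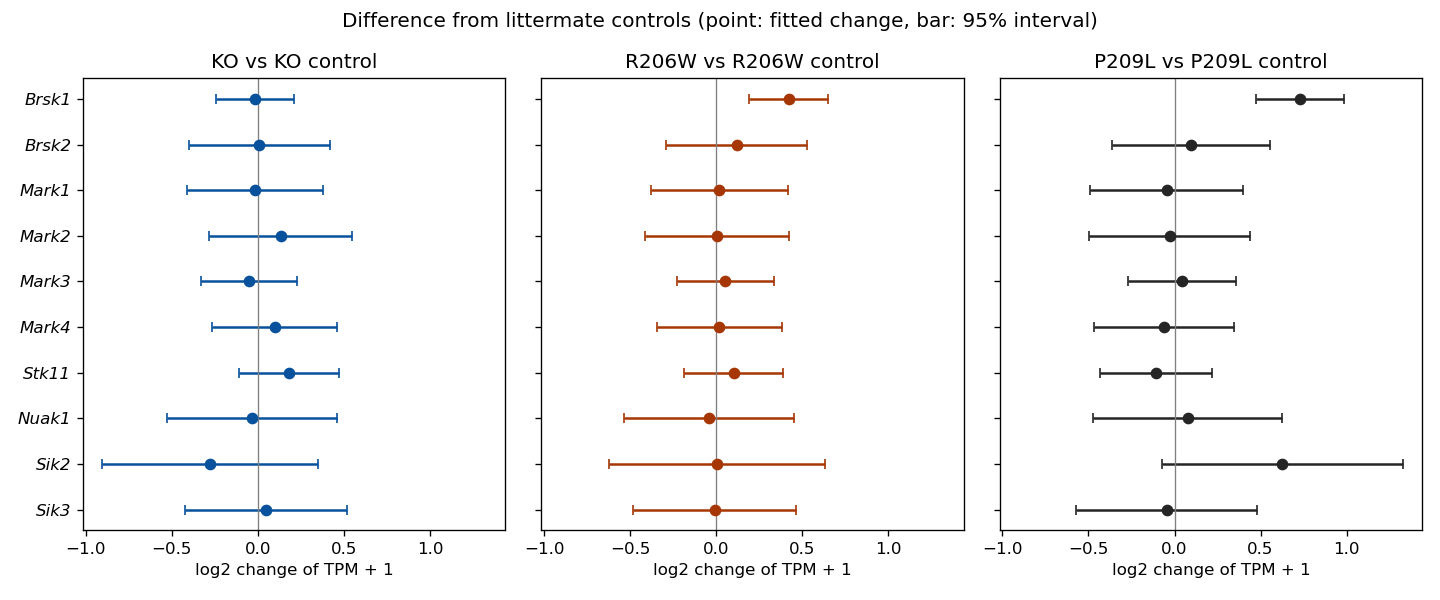
Fitted log2 change of TPM + 1 (horizontal axis) of each kinase in KO, R206W and P209L cortex against littermate controls; bars are 95% intervals. All samples are included. The interval of Brsk1 excludes 0 in R206W (0.19 to 0.65), and the intervals of the other 9 genes include 0 in all 3 lines. The P209L interval of Brsk1 (0.48 to 0.98) belongs to the value by which it was chosen and is no test.

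Over the 10 members the median difference was -0.00 in KO, 0.02 in R206W and 0.01 in P209L, beside medians over all genes of 0.06, 0.01 and 0.02. Without Brsk1 the medians were 0.01, 0.02 and -0.03. The highest difference of any member other than Brsk1 was 0.12 in R206W (Brsk2), below the 0.42 of Brsk1. The R206W intervals of Brsk2 (-0.29 to 0.53) and Sik2 (-0.62 to 0.63), among others, include that 0.42. In P209L the highest difference of another member was 0.63 (Sik2), with an interval of -0.08 to 1.33 that includes the 0.73 of Brsk1. The ratio of mean TPM in P209L to that in controls was 1.65 for Sik2 and 1.67 for Brsk1. Brsk1 was chosen by its P209L difference, so its rank there is not a result.

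The makeup of the kinase set was described from the summed TPM of the 10 genes, a measure that includes the values by which Brsk1 was chosen. Brsk1 made up 37.7%, 38.2% and 32.6% of the sum in R206W mice and 28.6%, 30.4% and 32.0% in their controls. The lowest R206W value, that of R206W 3, was close to the highest control, and R206W 3 also had the highest sum of the other 9 genes, 623 TPM. In P209L mice the share was 38.3%, 40.1% and 40.8%, against 28.1% and 29.4% in controls. In KO mice it was 33.9%, 33.6% and 30.3%, and in KO controls 40.8%, 30.6% and 29.0%. KO control 1 gave the 40.8%, since its other 9 kinases summed to 325 TPM against 521 and 575 TPM in KO controls 2 and 3 while its Brsk1 was like theirs.

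The ratio of Brsk1 to Brsk2 within a sample does not depend on the scaling of that sample. It was 2.44, 2.54 and 2.03 in R206W mice against 1.76, 1.93 and 1.98 in controls, and 2.67, 2.92 and 2.57 in P209L mice against 1.69 and 1.81 in controls. All knockin mice were above all controls of their own line, in R206W by a narrow margin (2.03 against 1.98). The P209L ratios contain the values by which Brsk1 was chosen, so their lack of overlap is no test. Of single genes, 16.2% were without overlap in R206W and 24.9% in P209L, and no such share was taken for ratios. The ratio was 2.11, 2.18 and 1.76 in KO mice and 2.79, 1.89 and 1.62 in KO controls, where the groups overlapped with or without KO control 1.

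**Figure D3:**
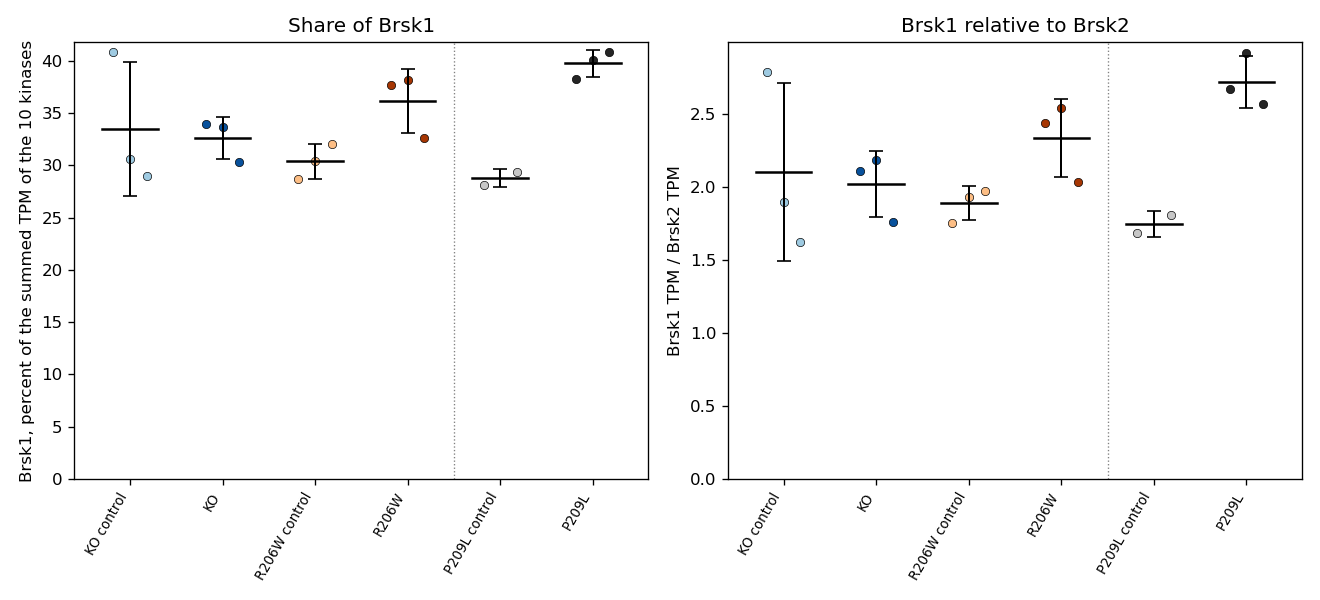
Left, Brsk1 as a percent of the summed TPM of the 10 kinases; right, TPM of Brsk1 divided by TPM of Brsk2; points are single mice, bars the mean and 1 SD per group, and both axes start at 0. The knockin mice lie above the controls of their own line in both panels (ratio 2.03 to 2.54 against 1.76 to 1.98 in R206W). In P209L this contains the values by which Brsk1 was chosen and is no test. One KO control, with 40.8% and a ratio of 2.79, lies far from the other KO controls.

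Markers of cell types moved in some of these comparisons. In bulk tissue, fewer cells of a type and less RNA per cell cannot be told apart. All 7 oligodendrocyte markers had lower values in P209L, with a median difference of -0.87, 0 called and 7 at an unadjusted p under 0.05, and their summed level was 2462 to 3533 TPM in P209L mice and 4075 and 6083 TPM in their controls. The 7 neuronal markers summed to 2590 to 3128 TPM in P209L mice and 2710 and 2999 TPM in controls, so the groups overlapped. Of 5 skeletal muscle markers tested, 2 were called lower in P209L, where 0.0984% of all genes were called. The 5 striatal markers summed to 89.0 to 110 TPM in P209L mice and 112 and 130 TPM in controls, without overlap. Of single genes, 24.9% were without overlap in P209L. Higher values in P209L were found for 0 of 6 microglial markers (median -0.19), 0 of 5 endothelial (-0.26) and 0 of 5 leptomeningeal fibroblast markers (-0.36), with 0 called. In R206W the neuronal sums (4551 to 5182 TPM) and the oligodendrocyte sums (2799 to 3529 TPM) overlapped those of the controls (4840 to 5072 and 3328 to 3592 TPM), and 7 of 7 oligodendrocyte markers had lower values with a median of -0.13 and 0 at an unadjusted p under 0.05. The astrocyte sums were 1388 to 1404 TPM in R206W mice and 1304 to 1323 TPM in their controls, and the endothelial sums 116.5 to 124 TPM and 109 to 116.1 TPM, both without overlap, with 5 of 6 and 5 of 5 markers at higher values and 0 at an unadjusted p under 0.05. Of single genes, 16.2% were without overlap in R206W. In KO, higher values were found for 7 of 7 oligodendrocyte markers (median 0.16), 6 of 6 astrocyte (0.23), 6 of 6 microglial (0.23), 5 of 5 endothelial (0.35) and 5 of 5 leptomeningeal fibroblast markers (0.26), beside a median of 0.06 over all genes, and 0 of them were called. Of all genes, 67.3% had higher values in KO. The oligodendrocyte sum was 2617 TPM in KO control 1, and 3365 and 3216 TPM in the other KO controls. In KO mice that sum was 3927, 3074 and 3120 TPM. The microglial sums of KO mice (253.4 to 349 TPM) lay just above those of KO controls (222 to 253.0 TPM), and 6.25% of single genes were without overlap in KO. No oligodendrocyte or neuronal marker was under 1 TPM on average in any group. The part of cell makeup in the Brsk1 values was not tested.

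The rest of the pathway was followed in 7 lists of 48 genes, of which 47 were tested. In KO and in R206W, 0 of the 47 genes passed the adjusted or the unadjusted threshold. In P209L 0 were called and 4 were at an unadjusted p under 0.05, all higher (8.51%, beside 7.46% of all genes). They include Taok1, a kinase that phosphorylates MARK (0.38), and Cdc42 (0.31) and Shtn1 (0.29), of the genes that act in axon specification. In the other 5 lists the gene with the smallest p in P209L was Cab39l (-0.31) for the LKB1 complex, Prkaa2 (0.16) for other LKB1-dependent kinases, Kif13b (-0.13) for microtubule substrates, Crtc3 (0.26) for CRTCs and deacetylases and Ppp1r12a (0.23) for other BRSK and NUAK substrates.

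Among the partners of LKB1 in its complex, the smallest p belonged to Strada in KO (difference 0.25, adjusted p = 0.999) and to Stradb in R206W (0.11, adjusted p = 1). Among the other LKB1-dependent kinases these genes were Prkaa2, a catalytic subunit of AMPK, in KO (-0.13, adjusted p = 0.999) and Sik1 in R206W (0.41, adjusted p = 1). The kinases' microtubule substrates include Dcx, which led that list in KO (0.22, adjusted p = 0.999), and Map2, which led it in R206W (-0.06, adjusted p = 1). Among CRTCs and class IIa deacetylases Hdac7 led in KO (0.39, adjusted p = 0.999) and Hdac5 in R206W (-0.14, adjusted p = 1). Rims1, a presynaptic active zone protein that BRSK1 phosphorylates, had the smallest p among the other BRSK and NUAK substrates in R206W (0.12, adjusted p = 1) and for the KO effect minus the R206W effect (-0.26, adjusted p = 1). Cdc25b led that list in KO (0.33, adjusted p = 0.999).

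In the PAR complex list, Pard3, a scaffold of the polarity complex, had the smallest p in KO (0.43, adjusted p = 0.999) and the kinase gene Pak7 in R206W (0.19, adjusted p = 1). Of the genes of axon specification it was Rap1b, a small GTPase, in both KO (-0.16, adjusted p = 0.999) and R206W (-0.11, adjusted p = 1). The median of the 47 genes was 0.04 in KO, 0.01 in R206W and 0.02 in P209L, beside 0.06, 0.01 and 0.02 over all genes. For the KO effect minus the R206W effect, 0 of the 47 passed either threshold, and genes with the smallest p in their lists were Strada (0.23), Sik1 (-0.81), Pard6b (-0.21), Kif13b (0.20) and Hdac5 (0.30), each with an adjusted p of 1.

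The wild-type groups of the same age, R206W controls and KO controls, show how far lines differ without a mutation. Of the 10 members, 0 passed the adjusted threshold (0% of all genes) and 0 the unadjusted threshold (3.12% of all genes). Brsk1 differed by -0.03 (interval -0.26 to 0.19), and the largest difference was 0.37 (Sik2, interval -0.26 to 0.99). Of the members, 9 were higher in R206W controls, with a median of 0.13, the same as the median over all genes. With median-of-ratios size factors the members' median was -0.01 and that of all genes -0.00. Without KO control 1 the difference of Sik2 was 0.06 and that of Nuak1, 0.25 with it, was -0.11. Of the 47 pathway genes 0 passed either threshold between these controls, with a median of 0.14, and the genes with the smallest p in their lists were Cab39 (0.20), Snrk (0.32), Prkci (0.28), Map2 (0.15), Crtc3 (0.15), Wee1 (0.32) and Kif3a (0.27).

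P209L controls, at 3 weeks, had less of several kinases than the 8-week controls. Age and line are the same split here and cannot be told apart. Of the 10 members 5 were called lower and 0 higher, where 36.1% of all genes were called, and 6 passed the unadjusted threshold, where 46% of all genes did. The calls over all genes were 1837 higher and 4039 lower, and 3503 higher and 3677 lower with median-of-ratios size factors, where the members called were 5 lower and 1 higher. Brsk1 is among the 5, but the P209L controls took part in its choice, so its difference of -0.62 (148 ± 12.4 TPM, n = 2, against 227 ± 9.84 TPM, n = 6) is a description.

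Sik2 differed most. It was at 6.94 and 9.21 TPM in P209L controls, and at 16.6 TPM (KO control 1) and 30.9 to 36.2 TPM in the 8-week controls. Its difference was -1.77 ± 0.29 (SE), 29.3% of the 8-week level, with an adjusted p of 0.00045. Nuak1 was at 17.4 and 17.8 TPM against 24.0 TPM (KO control 1) and 44.0 to 54.7 TPM, a difference of -1.26 ± 0.23 (SE) with an adjusted p of 0.00089. No 3-week control reached any 8-week control in either gene, but the share of all genes with such separation is not given here. Both were called in all 19 alternatives run for this comparison.

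Sik3 was at 27.0 and 31.5 TPM against 28.2 TPM (KO control 1) and 50.7 to 55.4 TPM, a difference of -0.68 with an adjusted p of 0.0265. The call of Sik3 was lost in 5 of the 19 alternatives. Mark1 was at 32.9 and 34.5 TPM against 32.9 TPM (KO control 1) and 46.9 to 55.9 TPM, a difference of -0.50 with an adjusted p of 0.0486. The call of Mark1 was lost in 10 of the 19. KO control 1 was the only 8-week control within the range of the younger mice in either gene.

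Brsk2 (-0.45, adjusted p = 0.0828) and Mark2 (-0.37, adjusted p = 0.15) were not called, and both were called without KO control 1, with -0.57 (adjusted p = 0.00711) and -0.51 (adjusted p = 0.00796). Mark3 (0.15), Mark4 (-0.16) and Stk11 (0.08) were not called, and KO control 1 was the lowest 8-week control for each of them. Mark3 was called higher in the younger mice with median-of-ratios size factors (0.29, adjusted p = 0.0146) and with quantile normalization (0.28, adjusted p = 0.0124), and Mark4 changed sign with quantile normalization (0.00). The median over all genes was -0.12 as deposited and 0.00 with median-of-ratios size factors, so a change relative to the median gene is higher by 0.12 than the values given here. With those size factors Sik2 differed by -1.64 and Nuak1 by -1.13. Without KO control 2, without P209L control 1 or without P209L control 2 the members called fell from 5 to 3, with Mark1 and Sik3 lost each time. Mark3 lay above 0 in all 19 alternatives, between 0.06 and 0.29.

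**Figure D4:**
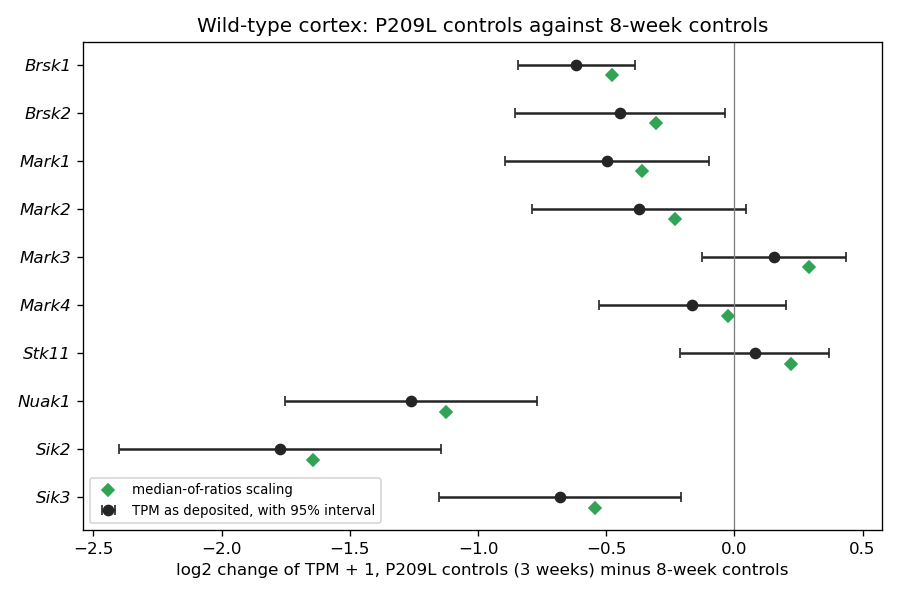
Log2 change of TPM + 1 (horizontal axis) of each kinase in P209L controls (3 weeks, n = 2) against 8-week controls (n = 6); circles and bars are the fitted change and its 95% interval, diamonds the change after median-of-ratios scaling. Sik2 (-1.77) and Nuak1 (-1.26) lie farthest to the left, and Mark3 and Stk11 lie to the right of 0.

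In the pathway lists 28 of 47 genes (59.6%) were called between these ages, 27 lower and 1 higher, beside 36.1% of all genes, and the median was -0.51 beside -0.12 over all genes. With median-of-ratios size factors 26 were lower and 6 higher. All lists held genes that were lower. Among other LKB1-dependent kinases 3 of 4 were lower, Prkaa2 (-0.79, adjusted p = 0.000954), Snrk (-0.94, adjusted p = 0.00253) and Prkaa1 (-0.52, adjusted p = 0.00399). Of the microtubule substrates 4 of 5 were lower, with Map2 (-0.93, adjusted p = 6.71e-05), Map4 (-0.81, adjusted p = 0.000208) and Kif13b, a kinesin (-0.71, adjusted p = 0.00436), leading. In the PAR complex list 6 of 9 were lower, led by Taok1 (-0.81, adjusted p = 0.000248), Pak7 (-0.79, adjusted p = 0.0021) and Pard3 (-0.91, adjusted p = 0.0053), and Pard6a was the 1 gene called higher (0.47, adjusted p = 0.0147).

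Of the CRTC and deacetylase substrates 4 of 7 were lower, led by Hdac4 (-0.84, adjusted p = 0.00247), Hdac9 (-0.56, adjusted p = 0.0128) and Crtc3 (-0.42, adjusted p = 0.0286). Of the other BRSK and NUAK substrates 3 of 5 were lower: Rims1 (-0.72, adjusted p = 0.000101), the myosin phosphatase subunit gene Ppp1r12a (-0.69, adjusted p = 0.000633) and the cell cycle kinase gene Wee1 (-0.92, adjusted p = 0.00105). Of the genes of axon specification 6 of 13 were lower, among them the kinase gene Gsk3b (-1.25, adjusted p = 0.000247). Of the 4 LKB1 partners Cab39, which encodes MO25, was lower (-0.35, adjusted p = 0.0374), but with median-of-ratios size factors 0 were lower and 2 higher, so the direction in this list depends on the scaling. The 7 neuronal markers, 4 of them called lower with a median of -0.58, had lower values in the P209L controls too. Of the oligodendrocyte markers 5 of 7 were called higher (median 0.72) and of the astrocyte markers 3 of 6 lower (median -0.42), and choroid plexus markers were high in P209L control 2. Their part in these differences was not tested.

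By the median pair, the kinases other than Brsk1 followed one another more closely across all 17 samples than they followed Brsk1. The 17 samples include the P209L mice and controls by which Brsk1 was chosen, so this difference is no test. Over the 36 pairs without Brsk1, Pearson's r of log2(TPM + 1) had a median of 0.812 and a range of -0.07 to 0.96. Over the 9 pairs with Brsk1 the median was 0.481 and the range -0.01 to 0.635. Over the 12 samples of 8 weeks the ranges of the pairs did not meet: 0.483 to 0.99 without Brsk1 and 0.21 to 0.462 with it. The points share lines, ages and the scaling of each sample, and KO control 1 and R206W 3 lie at opposite ends for most kinases, so these values are a description. Pairs with Mark3, which was not lower at 3 weeks, also had low r over 17 samples, from -0.07 (Nuak1) to 0.413 (Mark4). Over the 12 samples of 8 weeks the r of Mark3 with Nuak1 was 0.915.

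**Figure D5:**
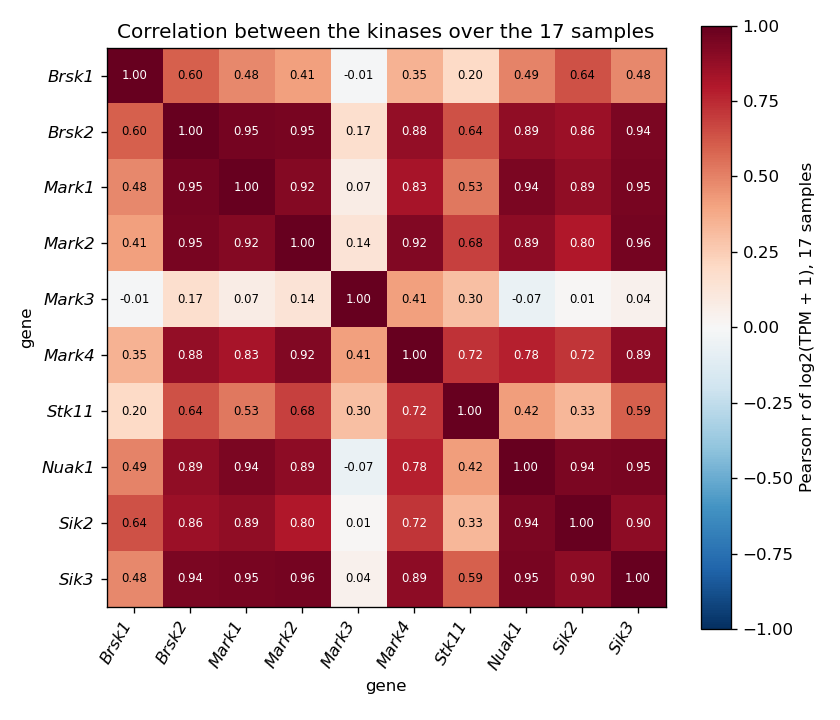
Pearson's r of log2(TPM + 1) between each pair of kinases over the 17 samples, on a colour scale from -1 to 1 with the value written in each cell. The row of Brsk1 is paler than most, with r from -0.01 to 0.635, the row of Mark3 is the palest, and most other pairs are dark.

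The genes whose levels followed Brsk1 most closely were from outside the family. Over 17 samples these were Ilrun (r = 0.943), Grk5 (0.924), Tab2 (0.922), Marf1 (0.906) and Ppp1r9b (0.893), and over the 12 samples of 8 weeks Ppp1r9b (0.979), Ilrun (0.966), Cacng7 (0.965), Phactr3 (0.954) and Shank1 (0.946). Ppp1r9b, which encodes the dendritic spine protein spinophilin, averaged 770 TPM in R206W and 365 TPM in its controls, 630 TPM in P209L and 218 TPM in its controls, and 368 TPM in KO and 373 TPM in its controls. Shank1, a postsynaptic scaffold gene, averaged 314 TPM in R206W and 180 TPM in its controls. Grk5, a low-level gene that encodes a receptor kinase, averaged 10.8 TPM in R206W and 7.79 TPM in its controls. These genes were picked from all tested genes for their likeness over the same samples, so their pattern is not independent of that of Brsk1.

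The genes most like the other members over 17 samples were Dusp7 for Brsk2 (r = 0.975), Ptgfrn for Mark1 (0.989), Zc3h18 for Mark2 (0.989), Erp44 for Mark3 (0.956), Fam160b1 for Mark4 (0.983) and Asphd2 for Stk11 (0.938). For Nuak1 it was Alkbh5 (0.996), for Sik2 Ankrd33b (0.985) and for Sik3 Tjp1 (0.992). No member was the closest gene of another member.

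hnRNP H proteins bind runs of G in RNA, so the members' transcripts were also described by their runs of at least 3 G on the sense strand (GGG or longer), counted in the transcript with the longest complete coding sequence. The Brsk1 transcript had 20.4 such runs per kb and a GC content of 59.8%, at percentiles 93 and 94 of the 13357 tested genes with such a transcript, whose medians were 12.4 runs per kb and 50.6%. Mark4 (24.7 runs per kb, percentile 98.5) and Stk11 (20.6 runs per kb, percentile 93.7) had as many or more. Brsk2 had 15.9 runs per kb, and Sik2 had the fewest, 8.45 per kb at percentile 16.9. These counts describe sequence only, and binding was not measured here.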

How the data were processed

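Total RNA of mouse cortex was sequenced, and the deposited table holds 1 TPM value per gene and sample, made by the authors. Per the labels, their processing notes name Trim Galore, STAR 2.7.1a, GATK 4.0.4.0, RSEM and the build mm10. Each of the 17 columns was matched to its sample by title, and the 120 entries that repeated a symbol were summed. Because TPM sums to the same total in each sample, the read depth is unknown and no counting interval is given, and a rise in a few abundant transcripts lowers all others.

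Values were analysed as log2(TPM + 1) with limma 3.58.1 (R 4.3.3, empirical Bayes with trend) over 16265 genes with a mean of at least 1 TPM, with 1 mean per group and a residual spread shared by all 6 groups, two-sided, with Benjamini-Hochberg adjustment over all genes at 0.05. A fold change on this scale understates that of low genes. The fit was tested on simulated data, and repeated with other pseudocounts, filters, scalings and weights, with a replicate block and without each mouse in turn. Sequences and positions came from GENCODE M21 (GRCm38), which matched 98.3% of symbols, and were read with Python 3.11.15 and Biopython 1.88. Named pathway genes were those past the adjusted threshold, at most 3 per list, or that with the smallest p, and the genes most like Brsk1 (5 over each set of samples) or another member (1) by Pearson's r. Some genes that this rule names are not reported here. The members and lists were chosen with earlier results of these data known. The p-values set each difference of group means against the spread between mice within groups, pooled over all 6 groups.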

Additional observations from a re-analysis of the deposited data

How the results depend on the processing

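As analysed, 1 gene was called in KO, 6 in R206W, 16 in P209L, 5 for the KO effect minus the R206W effect, 0 between R206W and KO controls and 5876 between P209L and 8-week controls. Without the expression filter, 4 genes were called in KO, 12 in R206W, 41 in P209L, 10 for the KO effect minus the R206W effect and 1 between R206W and KO controls, and 3 members were called between P209L and 8-week controls. In P209L, 66 genes were called with median-of-ratios size factors, 58 with quantile normalization (11 in R206W) and 48 without mitochondrial genes and pseudogenes. With robust estimation 2 genes were called in KO and 1 between R206W and KO controls. With sample weights, where KO control 1 had a weight of 0.0819, the counts were 2138 in KO, 149 in R206W, 72 in P209L, 319 for the effect difference, 26 between R206W and KO controls and 9470 between P209L and 8-week controls, and the members called were 2 in KO (Nuak1 and Sik2, lower), 1 in R206W (Brsk1), 1 for the effect difference (Brsk1) and 8 between P209L and 8-week controls. Fitted on its own groups alone, a comparison called 0 genes in KO, 10 in R206W, 6 in P209L, 3 for the effect difference and 1 between R206W and KO controls, with 0 members in P209L and 3 between P209L and 8-week controls. The cause of these differences was not tested.

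Leaving out 1 mouse at a time gave 1 to 5 genes called in KO, 5 to 6 in R206W, 8 to 26 in P209L, 3 to 12 for the effect difference, 0 to 3 between R206W and KO controls and 2719 to 8181 between P209L and 8-week controls, with 0 to 1 members called in P209L and 3 to 7 between P209L and 8-week controls. The 1 member called in P209L was lost without either control or without P209L 3. Where a P209L control was left out, the lone control left was assumed to vary like the other groups. The P209L call of Brsk1 follows from its choice, so keeping or losing it under any setting is no test.

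The labels do not say that a replicate number marks a shared litter or day. Deviations from group means had r of -0.17 to 0.331 over 40 pairs of mice with the same number, 9 of them over 0.1, and -0.31 to 0.265 over 80 other pairs, 10 of them over 0.1. The highest r were between the mice numbered 3 of the KO controls, KO and R206W, but not every pair was over 0.1, so the numbers were not taken to pair the mice. With the replicate block 25 genes were called in P209L, and the members called were 0 in KO, 0 in R206W, 1 in P209L and 4 between P209L and 8-week controls.

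Of the 10 members, none called, 9 in KO and 7 in R206W changed sign under some setting, in 31 of 170 values in KO and 26 of 170 in R206W. The direction of those small differences is not settled. Sik2 in KO and Brsk1, Brsk2 and Stk11 in R206W kept their sign, though they were not called as analysed. With 2 or 3 mice a group and the read depth unknown, differences smaller than the intervals given were not resolved.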
